A study of Homo sapiens with 17 samples.

Results

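The *SHH*, *EN2* and *MNX1* locus was taken as the stretch of human chromosome 7 from the bait fragment of *EN2* to that of *MNX1*, chr7:155454989-157013086 on GRCh38, a length of 1558.1 kb. Its members were the *Hin*dIII fragments of this stretch that occur in either list of promoter interactions, 70 of the 88413 listed fragments. Among them were 4 baited fragments, of 15982 in all, with a promoter of *EN2*, *CNPY1*, *SHH* or *MNX1*, and every partner of these 4 was followed, near or far. The other gene, *LMBR1*, was followed as a partner and by its H3K4me1 signal, since the fragment that holds its start is not in either list.

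*SHH* encodes Sonic hedgehog, the secreted ligand that patterns the neural tube and the limbs. *EN2* and *MNX1* encode homeobox transcription factors, the former of the midbrain and hindbrain and the latter of motor neurons and the pancreas. *CNPY1* encodes a member of the Canopy family, which acts in fibroblast growth factor signalling. *LMBR1* encodes a membrane protein, and an intron of it is known to hold the limb enhancer of *SHH*, called the ZRS, which acts from nearly a megabase away. Such far enhancers reach their promoters by looping of the chromatin. H3K4me1, the single methylation of lysine 4 on histone H3, marks active and poised enhancers and the flanks of promoters.

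Naive and primed PSCs were both of the human embryonic stem cell line H9 NK2 (WA09), a single established line. Naive PSCs, which resemble the epiblast before implantation, were kept in t2iL+PKCi, a medium with inhibitors of MEK, GSK3 and PKC and with LIF, on Matrigel. Primed PSCs, which resemble the epiblast after implantation, were kept in TeSR-E8 on Vitronectin, so that state, medium and coating cannot be told apart. Promoter Capture Hi-C (PCHi-C) was made in 2 replicates per cell type and combined by the authors into 1 list each, Hi-C came from 1 library per cell type, and H3K4me1 CUT&RUN from 2 naive and 3 primed libraries. Differences in PCHi-C and Hi-C therefore have no replicate check and no test. In these bulk libraries, a change in the share of cells with a mark or a contact and a change within each cell cannot be told apart.

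The promoters of the 4 baited genes are printed as RefSeq gives them in the 250 bases before each start (GRCh38.p14), 5′ to 3′ on the strand of the gene, with each CG in capitals, because CG-dense promoters of developmental genes are a known class and because these promoters turned out to contact each other in primed PSCs. CG reads the same on both strands.
EN2, chr7:155457879-155458128, plus strand: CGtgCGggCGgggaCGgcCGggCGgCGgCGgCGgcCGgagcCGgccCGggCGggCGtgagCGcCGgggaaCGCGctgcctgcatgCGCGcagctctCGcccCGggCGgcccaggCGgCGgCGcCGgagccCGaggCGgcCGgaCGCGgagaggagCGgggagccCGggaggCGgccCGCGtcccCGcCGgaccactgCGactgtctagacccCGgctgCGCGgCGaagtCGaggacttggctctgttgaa
MNX1, chr7:157010664-157010913, minus strand: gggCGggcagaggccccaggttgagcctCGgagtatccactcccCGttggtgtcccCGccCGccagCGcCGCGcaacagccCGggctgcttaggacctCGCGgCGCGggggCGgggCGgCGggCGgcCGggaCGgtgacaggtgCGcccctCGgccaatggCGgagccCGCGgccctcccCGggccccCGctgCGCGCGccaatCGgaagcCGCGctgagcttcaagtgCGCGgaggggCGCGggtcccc
CNPY1, chr7:155510163-155510412, minus strand: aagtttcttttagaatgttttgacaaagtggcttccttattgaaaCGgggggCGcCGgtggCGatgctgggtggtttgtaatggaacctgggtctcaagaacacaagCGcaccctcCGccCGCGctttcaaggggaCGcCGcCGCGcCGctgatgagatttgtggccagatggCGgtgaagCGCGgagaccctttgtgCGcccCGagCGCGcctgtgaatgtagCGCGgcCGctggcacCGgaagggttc
SHH, chr7:155812464-155812713, minus strand: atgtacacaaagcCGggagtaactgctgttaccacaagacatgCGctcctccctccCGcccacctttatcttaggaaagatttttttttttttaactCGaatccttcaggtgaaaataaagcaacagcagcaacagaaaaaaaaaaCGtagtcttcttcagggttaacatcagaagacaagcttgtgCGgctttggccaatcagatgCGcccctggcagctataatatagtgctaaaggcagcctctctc
The *EN2* window held 45 CGs, a number reached by 0.6% of the 35116 promoter windows of this length, and the *MNX1* window held 36, reached by 4.9%. The *CNPY1* window, which belongs to a start other than that of the main transcript, held 24, reached by 23.7%. The *SHH* window was unlike these, with 7 CGs, a number that 58.9% of promoters reached. It also holds a *Hin*dIII site (aagctt), 67 bases before the *SHH* start, which cuts this promoter between the bait and a fragment of 272 bp beside it. Over whole baits, the CG content relative to that expected from the bases was alike, at 0.65 for *SHH*, 0.63 for *EN2*, 0.71 for *MNX1* and 0.65 for *CNPY1*, and from 89.2 to 94.1% of baits lay below these 4.

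A pair of sequences away from promoters is shown because results below turn on them, both on the plus strand of GRCh38. The first is a *Hin*dIII fragment of 219 bp between the non-coding genes *BLACE* and *LINC03010*, contacted by all 4 baits in primed PSCs. The second is the middle of the 500 bp tile in intron 5 of *LMBR1* whose H3K4me1 rose most within that intron's run of called tiles.
Fragment contacted by all 4 baits, chr7:155376113-155376331: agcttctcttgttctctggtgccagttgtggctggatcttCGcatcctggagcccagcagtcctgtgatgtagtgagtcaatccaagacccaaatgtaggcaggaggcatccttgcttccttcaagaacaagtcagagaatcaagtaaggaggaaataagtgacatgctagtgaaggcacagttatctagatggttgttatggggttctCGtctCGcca
LMBR1 intron 5, chr7:156790601-156790900: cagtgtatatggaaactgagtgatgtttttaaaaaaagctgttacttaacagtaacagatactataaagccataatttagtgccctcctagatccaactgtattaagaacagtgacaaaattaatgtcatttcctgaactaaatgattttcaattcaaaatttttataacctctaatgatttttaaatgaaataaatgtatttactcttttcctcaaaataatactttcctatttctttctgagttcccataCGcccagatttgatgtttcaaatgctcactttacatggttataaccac
They held 3 CGs and 1 CG. Of windows of 300 bases along chromosome 7, 41.75% and 83.21%, respectively, held at least as many. The first sequence, of 219 bp, is thus set against longer windows, which raises its share.

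In naive PSCs, the 4 baits had 14 interactions with a CHiCAGO score of at least 5, and in primed PSCs they had 129. The score sets the reads of a pair of fragments against the background for their distance. The *EN2* bait (chr7:155454989-155469356) went from 1 interaction to 46, the *CNPY1* bait (chr7:155509021-155513969) from 3 to 32 and the *MNX1* bait (chr7:157004496-157013086) from 2 to 40. The *SHH* bait (chr7:155808959-155812530) was the one with many interactions already in naive PSCs, 8, and had 16 in primed PSCs. All 4 baits had at least 2 times and at least 5 more interactions in primed PSCs, which 10.9% of all baits had. Across all baits the median was 3 interactions in both lists, and 131 of 15982 baits had 46 or more in primed PSCs.

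Few of these interactions were the same ones in both states. Of the 129 primed interactions 3 were in the naive list, 2.33% against 44.2% of all primed interactions. With only 14 naive interactions this share could not be high. Of these 14, the 3 made 21.4%, beside 39360 of all 79330 naive interactions that were also in the primed list. The 3 were 2 from *SHH* and 1 from *EN2*. In naive PSCs none of the 14 was over 1 Mb long, in a list where 1.68% were, and in primed PSCs 81 of 129 were, 62.8% against 6.73% of all primed interactions. With equal numbers of top-scoring interactions taken from the 2 lists, the counts were 14 and 124.

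**Figure D1:**
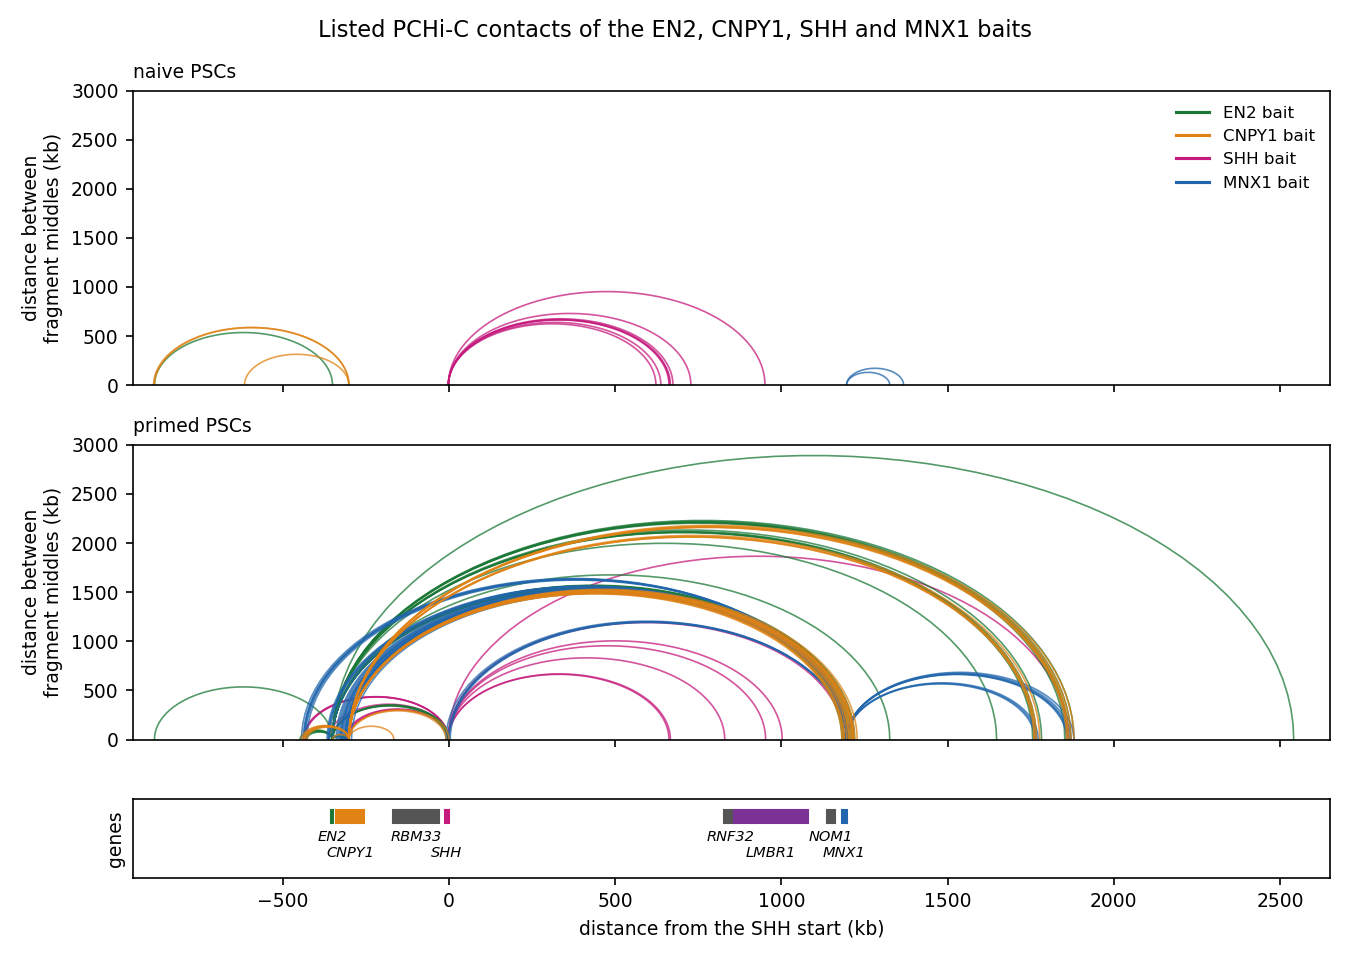
Interactions of the *EN2*, *CNPY1*, *SHH* and *MNX1* baits in the naive (top) and primed (middle) lists, each drawn as an arc between fragment middles whose height is the distance in kb (y axis), along the distance from the *SHH* start in kb (x axis). The naive arcs stay under 1 Mb and start mostly at *SHH*, and the primed arcs join the *EN2* and *CNPY1* side to *MNX1* and to *PTPRN2*; the 155777.6 kb interaction of *MNX1* with *UNCX* is outside the plot.

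The homeobox genes at the ends of the locus had the interaction with the highest score. *EN2* and *MNX1* contacted each other over 1546.6 kb with a score of 65.84 and 45 reads in primed PSCs, and the pair was not listed in naive PSCs. The read number is the one left after the authors scaled and combined the replicates. *CNPY1* and *MNX1* contacted each other over 1497.3 kb with a score of 40.15 and 31 reads. *SHH* and *MNX1* did so over 1198.0 kb with a score of 14.14 and 13 reads, a lower score and fewer reads over a shorter distance. *EN2* contacted its neighbour *CNPY1* (score 6.38, 123 reads, 49.3 kb) and *SHH* (score 6.13, 17 reads, 348.6 kb). Thus 5 pairs of the 4 baits were listed in primed PSCs and 0 in naive PSCs, and *SHH* with *CNPY1* was the pair listed in neither.

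The contact of *SHH* with these genes had higher scores on the other side of the *Hin*dIII site in its promoter. The 272 bp fragment next to the bait, chr7:155812531-155812802, was contacted by *MNX1* with a score of 24.12 and by *EN2* with a score of 17.95, against 14.14 and 6.13 for the *SHH* bait itself. For *EN2* the reads were 31 on this fragment and 17 on the *SHH* bait. *CNPY1* contacted the 272 bp fragment with a score of 6.88. This fragment carries no bait, so its own interactions were not sampled, and the 16 primed interactions of *SHH* are those of the part of the gene on the bait.

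The 4 baits shared most of their partners in primed PSCs. They had 70 partner fragments, of which 38 lay outside the locus, and 30 were contacted by 1 bait, 20 by 2, 16 by 3 and 4 by all 4. In naive PSCs there were 13 partner fragments, and 1 was contacted by 2 baits. Of the primed partners, 11 of 16 of *SHH*, 37 of 46 of *EN2*, 29 of 32 of *CNPY1* and 27 of 40 of *MNX1* were also partners of another of the 4. *EN2* shared 27 primed partners with *CNPY1* and 24 with *MNX1*, *CNPY1* and *MNX1* shared 16, and *SHH* shared 9 with *EN2*, 9 with *MNX1* and 7 with *CNPY1*. Since the baits of *EN2* and *CNPY1* lie 49.3 kb apart, their partner lists are not independent of each other.

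The shared partners fell into a few places. Joined within 20 kb, the primed partners made 16 groups, where an interaction between baits counts at both of its ends. The largest, around *EN2* and *CNPY1* (chr7:155443750-155524424), took 36 interactions, of which 21 came from *MNX1*. The group around *MNX1* (chr7:156991765-157044828) took 27, from *CNPY1* (13), *EN2* (12) and *SHH* (2), and that around *SHH* (chr7:155799128-155819864) took 10. Contacts thus ran both ways between the ends of the locus, over many fragments and not at a single one.

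Outside the locus on its centromeric side, 7 fragments around *BLACE* and *LINC03010* (chr7:155364156-155389924) took 21 interactions, with all 4 baits. Here lay 3 of the 4 fragments contacted by every bait, the 219 bp fragment printed above and both its neighbours. *MNX1* contacted the 219 bp fragment with a score of 33.79 and 24 reads over 1632.6 kb, and *SHH* did so with a score of 5.36 and 11 reads over 434.5 kb. *EN2* and *CNPY1*, which lie closer, had scores of 15.50 and 10.33.

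Further out on the telomeric side, most interactions ended in *PTPRN2*, a gene of the receptor-type tyrosine phosphatase family found on secretory vesicles. The exceptions beyond the group around *MNX1* were both from *EN2*, with the bait of *UBE3C* (score 5.38) and with an intergenic fragment, chr7:157455947-157464469 (score 5.11). A first group of 7 fragments (chr7:157566221-157597204), which includes the bait of the microRNA gene *MIR153-2*, took 12 interactions from *EN2*, *CNPY1* and *MNX1*, with scores up to 13.4. A second group of 6 fragments (chr7:157662843-157698371) took 17 interactions, with a score of 39.37 for *EN2* over 2212.0 kb. Its fragment chr7:157674445-157680152 was the fourth one contacted by every bait, with scores of 33.43 for *EN2*, 26.97 for *MNX1*, 24.03 for *CNPY1* and 8.66 for *SHH*. The *SHH* contact was the longest of that bait, 1866.6 kb. The longest of all was a contact of *MNX1* with the bait of *UNCX*, another homeobox gene near the other end of chromosome 7, over 155777.6 kb with a score of 9.23 but 3 reads. No bait of the 4 had an interaction between chromosomes.

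*SHH* differed from the others in its upstream desert and in *LMBR1*. In naive PSCs its 8 interactions all ran in the direction of *LMBR1*, over 624.6 to 952.7 kb. Of these, 6 ended between chr7:156433745 and chr7:156488584, inside the long non-coding gene *RNF32-DT*, 1 ended in *LINC00244*, a non-coding gene, and 1 on an exon of *LMBR1* (chr7:156762909-156763989, score 5.62, 7 reads). In primed PSCs 2 of the *RNF32-DT* interactions stayed listed. The fragment chr7:156472025-156476766 had a score of 13.21 with 15 reads in naive and 5.89 with 9 reads in primed PSCs, and chr7:156478024-156479576 had 7.45 with 10 reads and 7.83 with 11 reads. Scores near 5 sit at the limit of the lists, so a fragment missing from 1 list may lie just under it.

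Contacts of *SHH* with *LMBR1* were thus listed in both states, on neighbouring fragments. Next to the fragment contacted in naive PSCs, the intronic fragment chr7:156763990-156766409 had a score of 7.30 and 9 reads in primed PSCs, 954.5 kb away. It lies in intron 5, at the end away from the H3K4me1 signal described below. The other, chr7:156813654-156816773 in intron 4, had a score of 6.49 and 8 reads. No listed interaction of *SHH* ended on the intron 5 tiles where H3K4me1 rose.

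**Figure D2:**
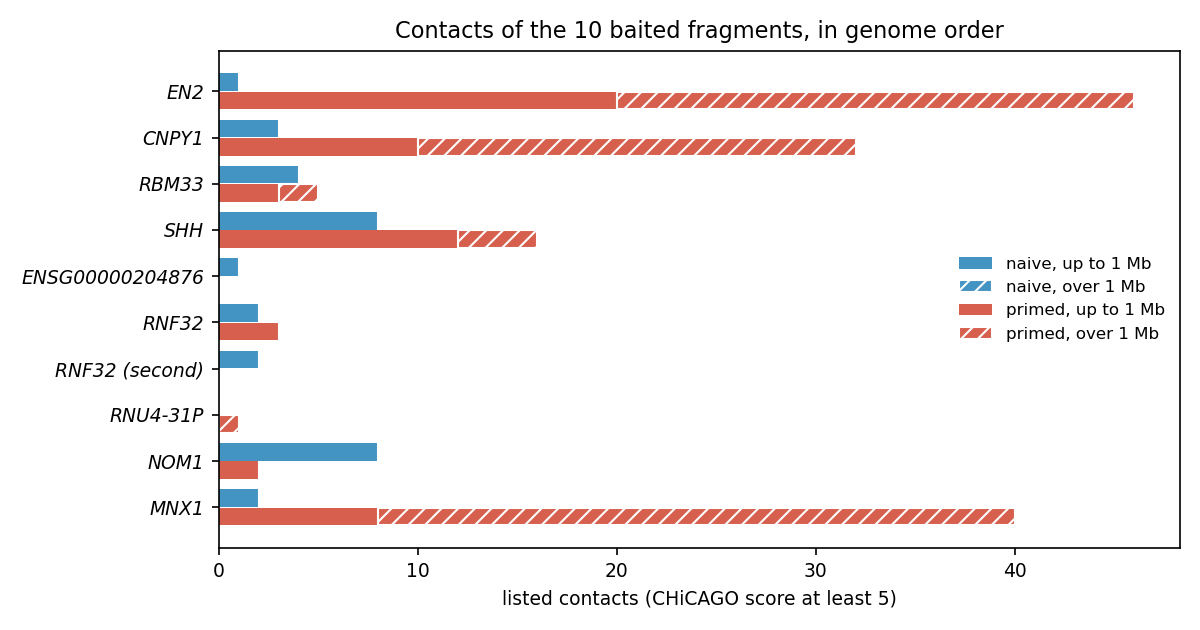
Number of listed interactions (x axis, CHiCAGO score at least 5) of the 10 baited fragments of the locus in genome order (y axis), naive in blue and primed in red, with the hatched part over 1 Mb; 1 list per cell type, so no error bars. The bars of *EN2*, *CNPY1* and *MNX1* reach 46, 32 and 40 in primed PSCs, mostly hatched, *SHH* goes from 8 to 16, *NOM1* from 8 to 2, and the other 5 baits stay at 5 or fewer.

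The other 6 baits of the locus did not follow the 4 in their number of interactions. *RBM33*, which encodes an RNA-binding protein and lies between *CNPY1* and *SHH*, had 4 interactions in naive and 5 in primed PSCs. Of these, 0 and 2, respectively, were over 1 Mb. *NOM1*, which encodes a nucleolar protein and is the neighbour of *MNX1*, had 8 and 2. Its fall meets the same limits in the other direction, which 8.25% of all baits met. The 2 baits of *RNF32* had 2 and 3, and 2 and 0, and the non-coding *ENSG00000204876* in the desert had 1 and 0. *RNU4-31P* inside *LMBR1* had 0 and 1, the latter over 1224.6 kb.

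Linked through shared fragments, the naive interactions left the 4 baits in 3 separate parts. *EN2* and *CNPY1* sat with *RBM33* in 43 fragments, *SHH* alone in 9, and *MNX1* with *NOM1* in 24. In primed PSCs all 4 belonged to a single part, together with *RBM33*, *RNF32* and *RNU4-31P*. This part held 2256 fragments and 3552 interactions, the largest of 3405. That size rested on interactions over 5 Mb and between chromosomes, without which the part held 128 fragments and 247 interactions, from chr7:154911727 to chr7:158356874, with 16 baits. The baits outside the locus that shared most primed partners with *SHH*, *EN2* and *MNX1* were *BLACE* with 24, *MIR153-2* with 11, *LINC03010* with 8 and *PAXIP1-AS2* with 3. Next came a tie among *UNCX*, *HOXA2*, *PAXIP1* and *INSIG1*, with 1 each. *BLACE* itself went from 8 to 36 interactions and *MIR153-2* from 2 to 13, while *PAXIP1-AS2* had 22 in both.

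In Hi-C, which was not enriched for promoters, the same pairs stood out in the primed library. By the paper's methods PCHi-C was captured from Hi-C library DNA, so the assays need not be independent of each other. The 100 kb bins of *EN2* and *MNX1* had 106 contacts (95% Poisson interval 86.8 to 128, which covers counting error only), where pairs of bins 1600 kb apart on chromosome 7 had 12.7 on average, a ratio of 8.37. The mean of the 24 bin pairs around it was 27.5. *EN2* with the *PTPRN2* group had 50 contacts and a ratio of 7.37, *CNPY1* with *MNX1* had 89 and a ratio of 6.23, and *BLACE* with *MNX1* had 49 and a ratio of 4.29. The ratio for *SHH* and *MNX1* was lower, 2.39 from 50 contacts (interval of the ratio 1.77 to 3.15). The bin next to that of *SHH*, over *RBM33*, had 47 contacts with the *MNX1* bin and a ratio of 2.59.

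These 4 long pairs and *SHH* with *MNX1* were not listed in the naive Hi-C file, which lists a smaller share of pairs at longer distances. At 600 kb it lists 79.5% of the pairs of the primed file, with a mean of 53.6 contacts among those listed. At 1600 kb it lists 7.45%, with a mean of 7.79, so that a naive value cannot be given and no fold is stated. Why pairs are missing was not tested, and a missing pair is not read as a low count. Pairs listed in both files allow the values to be set side by side. *SHH* with the *RNF32-DT* bin had 193 naive and 214 primed contacts, the latter 3.46 times the mean at that distance. *SHH* with the bin that holds the intron 5 signal had 87 and 129, the latter 3.85 times the mean (3.22 to 4.58). On chromosome 7 the primed file held 2396592 contacts in 272930 pairs, and the naive one held 1333218 in 15470 listed pairs. At a distance of 100 kb, where 1516 naive and 1547 primed pairs are listed, the mean counts were 345 naive and 403 primed.

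The bins of *LMBR1* and *MNX1*, although close together, had few contacts with each other. The bin of the *LMBR1* start and that of *MNX1*, 200 kb apart, had 54 naive and 50 primed contacts, and the primed value was 0.262 times the mean at that distance. For intron 5 and *MNX1* the counts were 86 and 71, the latter 0.539 times the mean. *EN2* with *SHH* was also below the mean in primed PSCs, with 72 contacts and a ratio of 0.737, although their fragments had a listed PCHi-C interaction. Contacts of the *SHH* bin with the side of *LMBR1* were thus frequent for their distance in Hi-C, and those of *LMBR1* with *MNX1* infrequent. The excess toward *LMBR1* was not particular to *SHH*. Its neighbouring bin, over *RBM33*, had 137 primed contacts with the intron 5 bin, 4.81 times the mean at that distance. The mean of the 24 bin pairs around *SHH* and intron 5 was 80.

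**Figure D3:**
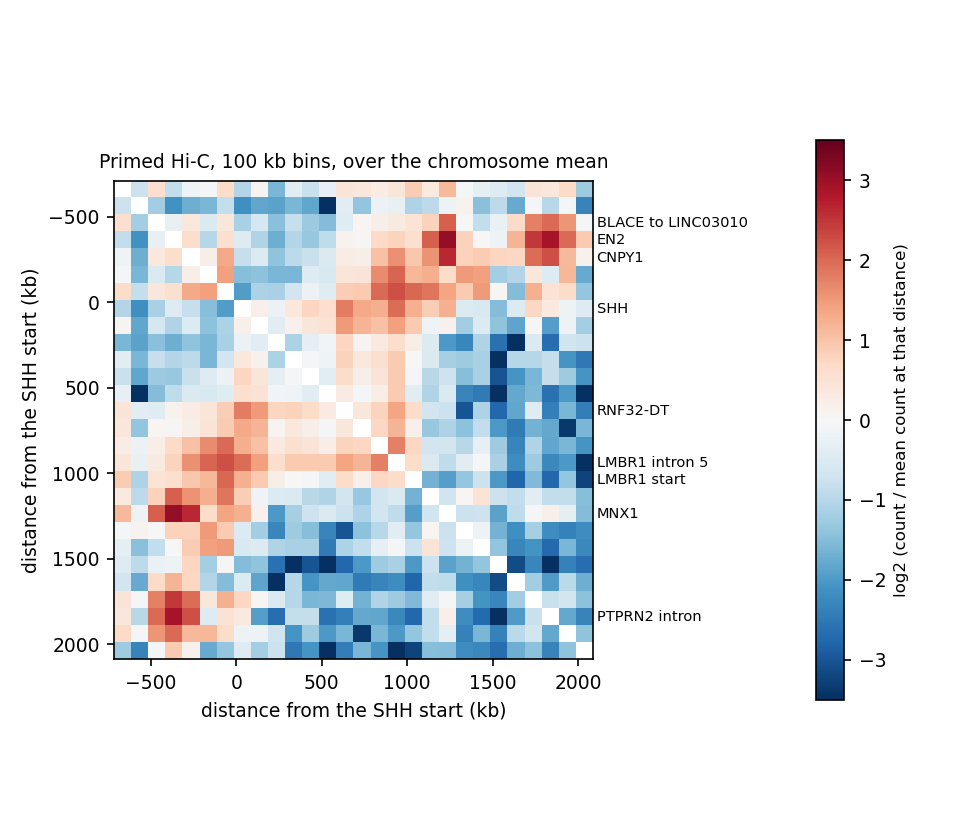
Primed Hi-C contacts between 100 kb bins, as log2 of the count over the mean of all chromosome 7 pairs at that distance (colour), by distance of each bin from the *SHH* start in kb (both axes); white squares on the diagonal have no value, and the library is single. Dark red squares join *EN2* and *CNPY1* to *MNX1* (106 and 89 contacts) and to the *PTPRN2* group (50 and 36), and *SHH* joins *LMBR1* intron 5 (129), while *LMBR1* and *MNX1* are blue.

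H3K4me1 was read as log2 RPM per 500 bp tile, from 6.74 to 26.6 M reads per library, and averaged over the tiles of a fragment. An empty tile has a value between -4.89 and -2.91, depending on the depth, so that means over mostly empty stretches move with depth. Of all 88413 listed fragments, limma (Benjamini-Hochberg adjusted p under 0.05) called 8.19% higher in primed and 13.2% higher in naive PSCs. Of the 70 fragments of the locus, 4 were higher in primed (5.71%) and 8 in naive PSCs (11.4%), both near the share of all fragments, and the median change was 0.02. The count in primed was 1 without naive replicate 1 and 9 without primed replicate 2, and that in naive 4 and 3 without naive replicates 1 and 2. As a check of the labels, bait fragments of naive markers were higher in naive PSCs at *DPPA5* and *DPPA3*, 2 of 4 measured, and the bait of the primed marker *TCF4* was higher in primed PSCs, while most of the other primed markers did not pass.

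At the *SHH* bait the 2 naive libraries had -0.94 and -0.91 and the 3 primed libraries 0.91, 0.90 and 0.53 in log2 RPM. Every primed library was above every naive one. The change was 1.70 ± 0.36 (log2, SE; limma adjusted p = 0.00182), and without naive replicate 1 the adjusted p was 0.0587 at a change of 1.69. The fragment with the rest of the gene, chr7:155799128-155808373, rose by 1.08 ± 0.35 (adjusted p = 0.0324), a call that was lost without naive replicate 1, naive replicate 2 or primed replicate 3 (adjusted p from 0.0699 to 0.161). The other calls toward primed were a fragment of *RBM33*, chr7:155748895-155749189, which rose by 2.64 ± 0.39 (adjusted p = 6.34e-05), and a fragment of *CNPY1* beside its bait, chr7:155505903-155509020, which rose by 1.70 ± 0.40 (adjusted p = 0.004). The *RBM33* fragment, of 295 bp, was read from 1 tile, which is longer than the fragment, and its call held under every alternative run. The *CNPY1* call was lost without naive replicate 1 (0.0913) or naive replicate 2 (0.0924).

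At the *EN2* bait the naive values were -1.0 and -0.72 and the primed values -0.09, -0.21 and -0.57. The primed libraries again all lay above, but the change of 0.57 ± 0.36 did not pass (limma adjusted p = 0.321). At the *CNPY1* bait the groups overlapped, with -1.67 and -0.94 in naive and 0.41, -1.05 and -0.09 in primed PSCs. Its change of 1.06 ± 0.43 had an adjusted p of 0.0853 in limma, which primed replicate 2 decided (0.000798 without it), and of 0.0221 in edgeR on the recovered reads. The *MNX1* bait was the one with the most signal in naive PSCs, 0.37 and -0.03, and stood at 0.45, 0.32 and -0.03 in primed PSCs, a change of 0.07 ± 0.37 (limma adjusted p = 0.949). The bait that gained the second most interactions among the 4 thus had levels that overlapped between states.

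**Figure D4:**
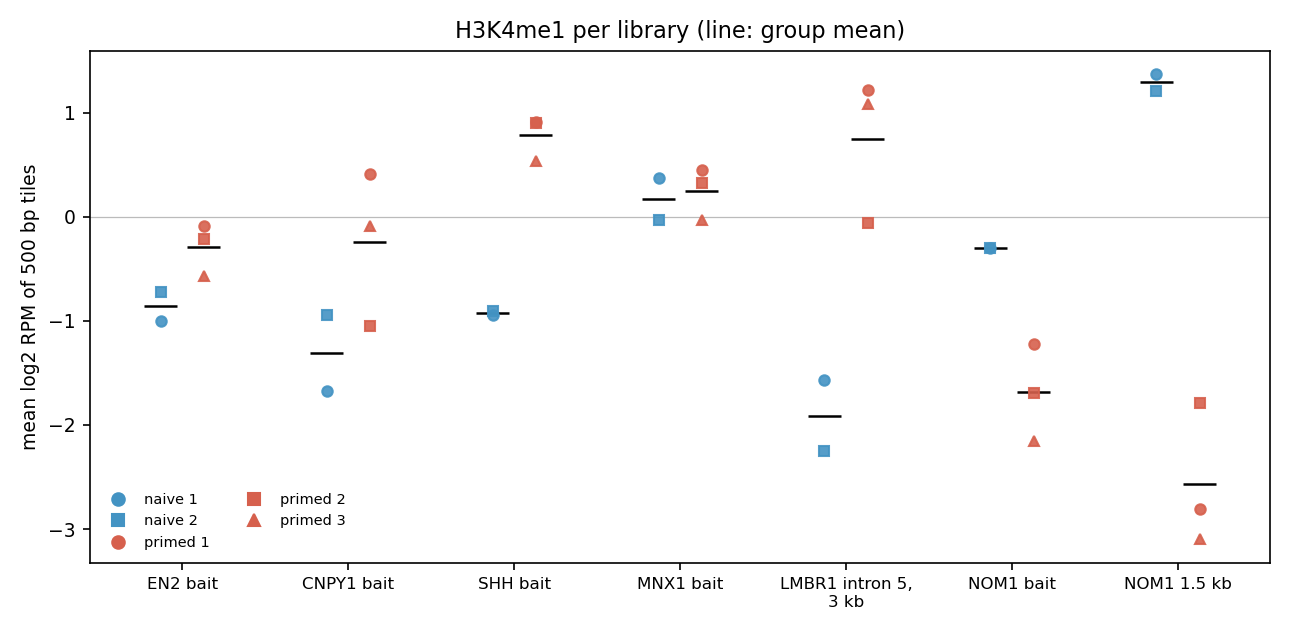
H3K4me1 of each library (points; blue naive, red primed; the marker shape gives the replicate number) and the group mean (line), as mean log2 RPM of 500 bp tiles (y axis), at the 4 baits of the named genes, the 3 kb of *LMBR1* intron 5, the *NOM1* bait and 1.5 kb in *NOM1* (x axis). Primed points lie above naive ones at *SHH* and *LMBR1* intron 5, below them at both *NOM1* places, and among them at *MNX1*.

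Of the 3116 tiles of the locus 181 were above a log2 RPM of 0 in at least 2 libraries and were tested. Of these, 62 were higher in primed (34.3%) and 18 in naive PSCs (9.94%), beside 25.9% and 26.1% of the 465156 tiles tested in the genome. The median change was 0.69. A tile can pass this filter through the group where it is high, and without a filter 91 tiles were higher in primed and 50 in naive PSCs. The counts without a filter, here and below, have no share over all tiles beside them and are not read as high or low. The mean over the whole locus differed by 0.17 (p = 0.6, exact permutation). Without naive replicate 1 the counts were 41 and 10, and without naive replicate 2 they were 35 and 9. Most of the locus held little of the mark. No tile passed the limit across the 747.5 kb upstream of *SHH*, from chr7:155812501 to chr7:156560000, in which its naive interactions with *RNF32-DT* ended.

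Within the *SHH* gene 13 of 19 tested tiles were higher in primed PSCs and 0 in naive PSCs (7 and 0 of 25 without the filter). Apart from chr7:155809001-155809500, these 13 were below a log2 RPM of 0 in both naive libraries. They thus passed the filter through the primed libraries alone. The count in primed was from 7 to 15 under the alternatives. The tile chr7:155806001-155806500 had -3.45 and -2.75 in naive and 0.76, 0.19 and 0.48 in primed PSCs, a change of 3.57 ± 0.60 (limma adjusted p = 0.000291). Over the whole gene the mean log2 RPM was -1.57 and -1.62 in naive and -0.20, -0.30 and -0.49 in primed PSCs, a difference of 1.26. The 2 groups did not overlap, and the exact two-sided permutation test gave p = 0.1, the smallest that 10 splits allow (0.29 adjusted over 26 intervals). *RBM33*, next to *SHH*, had 20 of 36 tested tiles higher in primed and 1 in naive PSCs, with 12 higher in primed without either naive library. Without the filter the counts in *RBM33* were 18 and 6 of 274 tiles. *CNPY1* had 10 and 2 of 26 (14 and 3 of 163 without the filter). It had 5 higher in primed PSCs without naive replicate 2 or without primed replicate 3. The *MNX1* gene had 0 and 1 of 19, and 0 and 0 without either naive library or primed replicate 3. Its mean log2 RPM was -0.12 and -0.44 in naive and -0.72, -0.76 and -0.88 in primed PSCs. That difference of -0.51, without overlap, had the same p as *SHH* (p = 0.1, exact permutation, 0.29 adjusted).

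Intron 5 of *LMBR1* had 7 of 11 tested tiles higher in primed PSCs and 0 in naive PSCs (9 and 0 of 65 without the filter). The 7 tiles were below a log2 RPM of 0 in both naive libraries, so they passed the filter through the primed ones alone. Of the 7, 6 formed an unbroken run of 3.0 kb at chr7:156790001-156793000, 979.0 kb from the *SHH* start, which includes the printed sequence. The mean of the run was -1.57 and -2.25 in naive and 1.22, -0.06 and 1.08 in primed PSCs, a difference of 2.66, with tile changes from 2.08 to 3.07. All 3 primed libraries were above both naive ones, and primed replicate 2 was the lowest of them. The run was picked for its values, which are a description, and its call count in the intron was from 5 to 9 under the alternatives. Across the whole intron the difference was 0.81 (p = 0.1, exact permutation, 0.29 adjusted). Other introns reached the same p without overlap, in both directions. Introns 8, 12 and 14 differed by 1.63, 1.14 and 0.88, and introns 1 and 2 by -0.74 and -0.38. In intron 8, the tile chr7:156758501-156759000 rose by 3.19 ± 0.74 (limma adjusted p = 0.00246), but by 1.76 without naive replicate 1 (0.105). Over the *LMBR1* gene the libraries overlapped, with a difference of 0.16 (p = 0.7, exact permutation).

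Between *LMBR1* and *MNX1* all called tiles were lower in primed PSCs. Over the whole stretch between these genes the mean differed by -0.63 (p = 0.2, exact permutation, 0.43 adjusted), and the groups did not overlap. Of 15 tested tiles between these genes, 12 were higher in naive and 0 in primed PSCs (22 and 0 of 202 without the filter), and *NOM1* carried most of them. The 12 tiles were below a log2 RPM of 0 in every primed library, so they passed the filter through the naive ones alone. The *NOM1* fragment chr7:156955665-156955880 had 1.31 and 1.57 in naive and -3.15, -2.98 and -2.41 in primed PSCs, a change of -4.28 ± 0.37 (limma adjusted p = 1.34e-06), the largest of the fragments called in the locus. This fragment, of 216 bp, was read from 1 tile, which is longer than the fragment. Its primed values are near those of an empty tile. At chr7:156966001-156968500 in the same gene the mean fell from 0.49 and 0.46 to -3.30, -2.84 and -2.34. Within the *MNX1* gene, the fragment chr7:156997951-156999087 went from -0.48 and -0.67 to -1.99, -2.98 and -2.09 (-1.78 ± 0.39, adjusted p = 0.00212), a call lost without naive replicate 1 (0.0669) and in edgeR (0.0668). The *NOM1* bait itself had -0.30 in both naive libraries and -1.22, -1.69 and -2.15 in primed ones, a change of -1.39 ± 0.38 (adjusted p = 0.0108), which was lost without naive replicate 1, naive replicate 2 or primed replicate 3. This neighbour of *MNX1* was thus lower in primed PSCs in its mark and in its interactions.

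**Figure D5:**
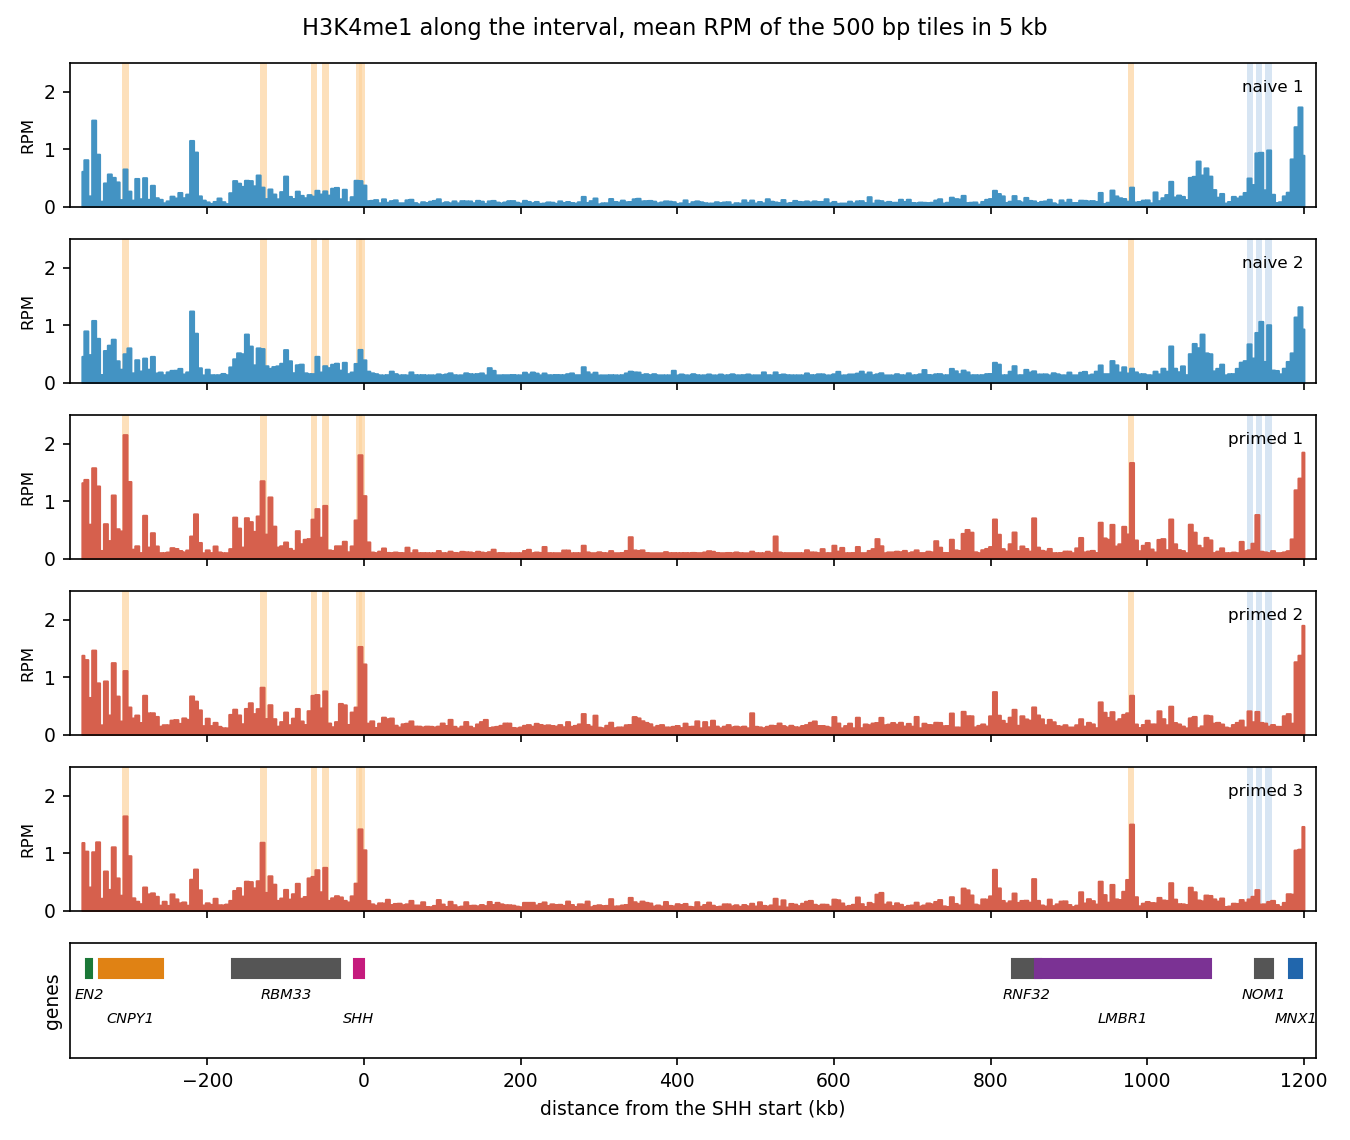
H3K4me1 along the locus in each of the 5 libraries, as the mean RPM of the 500 bp tiles in 5 kb (y axis) by distance from the *SHH* start in kb (x axis), with runs of tiles higher in primed shaded orange and higher in naive shaded blue. The orange runs lie in *CNPY1*, *RBM33*, *SHH* and *LMBR1*, the blue ones beside and in *NOM1*, and the 747.5 kb upstream of *SHH* are flat in all libraries.

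The partners of the 4 baits had more calls toward primed PSCs than the locus itself. Of 66 primed partner fragments other than the baits, 9 were higher in primed (13.6%, beside 8.19% of all fragments) and 5 in naive PSCs (7.58%, beside 13.2%), and the median change was 0.36. Of the 18 contacted by at least 3 baits, 5 were higher in primed and 0 in naive PSCs. Neighbouring fragments share reads and domains, so these shares carry no test. None of the 13 naive partners was called in limma.

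In *PTPRN2*, 3 of the 6 fragments of the second group of partners were higher in primed PSCs, and 0 of the 7 of the first group were called. The fragment contacted by all 4 baits, chr7:157674445-157680152, had -3.41 and -2.89 in naive and -0.73, -0.93 and -1.19 in primed PSCs, a change of 2.20 ± 0.37 (limma adjusted p = 0.000198). Its neighbours chr7:157673987-157674444 and chr7:157687239-157698371 rose by 1.52 and 1.5. Around *BLACE*, the 3 fragments contacted by all 4 baits had changes of -0.05, 0.84 and 0.95, none of which passed, and the nearby chr7:155364156-155365131 in *BLACE* fell from 1.23 and 1.33 to -1.15, -1.98 and -2.07 (-3.02 ± 0.38, adjusted p = 1.7e-05).

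Partners were richer in CG than other fragments. Of the 66 primed partners, 16.7% had a CG content of at least 0.6 of that expected, against 3.14% of all listed fragments and 13.6% of all baits. Their median was 0.39, against 0.22 over all listed fragments. Of the 13 naive partners 0 reached 0.6.

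Other genes of the hedgehog pathway had changes in both directions. Of 19 genes 13 had a bait, on 16 fragments, which went from 99 interactions to 133, and 7 of the 16 had more in primed and 7 more in naive PSCs, which 42.7% and 45.1% of all baits had. Of all 15982 baits, 6.38% were higher in H3K4me1 in primed and 15.1% in naive PSCs. H3K4me1 was higher in primed PSCs at 2 of the 16 baits, those of *GLI2* (1.48) and *GLI3* (2.15), which encode transcription factors at the end of the pathway. The second bait of *GLI3*, chr7:42234764-42240281, had a change of 0.44 that did not pass (limma adjusted p = 0.464). The mark was higher in naive PSCs at 1 of the 16, that of *IHH* (-1.54), which encodes a ligand like *SHH*. *PTCH1*, the receptor, had 1 naive and 2 primed interactions.

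Homeobox relatives of *EN2* and *MNX1* had more interactions in primed PSCs. The 8 genes had 10 baited fragments, which went from 51 interactions to 150, and 8 of 10 had more in primed PSCs, beside 42.7% of all baits. H3K4me1 was higher in primed PSCs at 4 of the 10 (beside 6.38% of all baits) and in naive PSCs at 0 (beside 15.1%). The 4 were those of *EN1*, the paralogue of *EN2*, with 1.70 and 1.71, *GSX2* with 1.70 and *PDX1* with 1.10. Baits of genes of other cell types (neural, endoderm, mesoderm and trophoblast markers) moved the same way, with 31 interactions in naive and 163 in primed PSCs and 4 of 10 fragments higher in the mark in primed PSCs, beside the same 6.38%. Their mean log2 RPM was -0.45 and -0.56 in naive and 0.44, -0.09 and 0.09 in primed PSCs. Whether differentiated cells in the cultures had a part in the changes at the locus was not tested.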

How the data were processed

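Groups are the cell types in the labels of the PCHi-C, Hi-C and H3K4me1 CUT&RUN libraries. Libraries of NANOG, SOX2 and input were not used. The authors mapped PCHi-C reads on GRCh38 with HiCUP and deposited pairs of fragments from a CHiCAGO score of 5 upwards, with a combined read number. For Hi-C, the authors deposited raw counts of di-tags per pair of 100 kb bins, and the naive file leaves out many pairs. For H3K4me1, the authors deposited log2 RPM per 500 bp tile (Trim Galore, Bowtie2, SeqMonk). An empty tile stands at 0.9 reads, and 100% of the values were whole reads within 0.01.

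Column 4 of the lists held no gene names, so baits were named from GENCODE release 44 (transcript start and 1000 bp upstream). Networks were made in igraph 0.11.9. Fragments (mean of tiles, no filter) and tiles (log2 RPM above 0 in at least 2 libraries) were tested genome-wide with limma 3.58.1 in R 4.3.3 (eBayes with a trend; Benjamini-Hochberg, threshold 0.05), primed minus naive, and edgeR 4.0.16 was run on recovered reads. Means of 26 intervals went through two-sided exact permutation tests (10 splits). Poisson intervals (95%) cover counting error only. Scripts were tested on simulated data and ran in Python 3.11.15 with pandas 2.3.3 and scipy 1.17.1.

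The members and gene lists were chosen with earlier results of these data known. Genes named are the 5 members, genes with a bait in the locus or contacted by a member, the 5 fragments and 5 tiles with the largest change in each direction, the *LMBR1* introns, hedgehog genes, homeobox relatives, state markers and the baits that share most partners. The result of 1 listed marker gene is not reported here. Any other fragment, run or region was named after its values were seen.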

Additional observations from a re-analysis of the deposited data

How the results depend on the processing

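Of 564 values recomputed under the alternatives, 498 were counted as the same. For H3K4me1, this asked a named call to keep its direction and side of the threshold. A count of calls had to stay near its main value, and a mean over an interval had to keep its direction. A bait that was not called could change direction and still count as the same. A CHiCAGO score of at least 7 left 7 naive interactions of the 14 and 1 shared interaction of the 3, and a score of at least 10 left 1 naive, 0 shared and 70 primed interactions of the 129. With at least 10 reads, 51 of the 81 primed interactions over 1 Mb were left, and with a limit of 500 kb in place of 1 Mb 11 naive interactions counted as long. For H3K4me1, edgeR called 8 fragments of the locus higher in primed PSCs against 4 in limma and 8 higher in naive PSCs in both, and the filter on low values left 1 fragment higher in naive PSCs of the 8. Without a filter, 50 tiles were higher in naive PSCs against 18. Leaving out 1 library at a time gave 1 to 9 fragments and 35 to 72 tiles higher in primed PSCs, and 3 to 8 fragments and 9 to 21 tiles higher in naive PSCs, with the lowest counts of primed fragments without naive replicate 1 and of the other calls without naive replicate 2.

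The mean over the locus differed by 0.17 (p = 0.6, exact permutation) and by -0.20 to 0.55 with 1 library left out, so its sign rested on naive replicate 1, the deeper naive library. Without that library the difference turned negative elsewhere too. With 1 library left out it ran from -0.19 to 0.51 over the *LMBR1* gene, from -0.03 to 0.46 between *CNPY1* and *SHH* and from -0.24 to 0.71 between *SHH* and *LMBR1*. Over *LMBR1* introns 4, 10 and 15 it ran from -0.13 to 0.62, from -0.40 to 0.78 and from -0.33 to 0.72. Introns 7 (-0.65 to 0.97) and 11 (-0.48 to 1.21) turned without primed replicate 2 as well (-0.05 and -0.34), intron 7 also without primed replicate 1 (-0.01) and intron 10 on the linear scale (-0.01). The cause was not tested.

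The replicate numbers did not pair the libraries: the deviations of same-numbered libraries correlated at 0.07 and 0.18, over 2 pairs. With the number as a replicate block, 3 fragments were higher in primed and 8 in naive PSCs, and 50 and 15 tiles. The *SHH* fragment chr7:155799128-155808373 was not called with the block (limma adjusted p = 0.0637, change 1.15), nor was the *NOM1* bait (limma adjusted p = 0.074, change -1.16). Leaving interactions over 5 Mb out of the network, a choice made after seeing the data, left 247 interactions of 3552.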
